A study of Mus musculus with 6 samples.

Results

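Npas4 and 4 of its relatives in the bHLH-PAS family of transcription factors were followed in mouse primary visual cortex (V1) after closure of an eye. The 5 genes were Npas4 itself, its dimerization partners Arnt and Arnt2, and its paralogs Npas1 and Npas3. They were found by symbol among the 52636 Ensembl genes of the count table, and 5 of 5 were among the 20473 genes with enough reads to be tested. Total RNA had been sequenced from V1 of 3 mice of the wild-type strain C57BL/6J at P28 (postnatal day 28), after 3 days of MD (monocular deprivation, here suture of the right eyelids). Both hemispheres of each mouse were sampled: left V1, opposite the sutured eye, gave 3 contralateral libraries, and right V1, on its own side, gave 3 ipsilateral ones. All mice had the right eye closed, so the effect of deprivation and a difference between left and right V1 cannot be told apart. The ipsilateral hemisphere serves as the comparison, and it too receives some input from the closed eye. No library of a mouse with both eyes open was analysed here. A fall below therefore means a lower level in contralateral than in ipsilateral V1, whichever side moved.

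Proteins of this family bind DNA as pairs: a regulated or cell-type-restricted member joins a widely present partner such as ARNT or ARNT2. NPAS4 is induced in neurons by calcium entry with membrane depolarization, without the need for new protein synthesis, and it drives genes that adjust the inhibitory synapses a neuron receives. Its transcription is therefore often read as a trace of recent activity in cortex. In the visual cortex of young animals, closing an eye reduces the drive to the hemisphere opposite it more than to the hemisphere on the same side.

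The genes lie on 4 chromosomes, by the GRCm38 coordinates of the deposited table. Npas4 (ENSMUSG00000045903) spans chr19:4984355-4989971 on the minus strand, with 3277 bases of exon. Arnt (ENSMUSG00000015522) spans chr3:95434388-95497240 on the plus strand, with 8007 bases of exon. Arnt2 (ENSMUSG00000015709) spans chr7:84246278-84410176 on the minus strand, with 7689 bases of exon. Npas1 (ENSMUSG00000001988) spans chr7:16455721-16477728 on the minus strand, with 3009 bases of exon. Npas3 (ENSMUSG00000021010) spans chr12:53248677-54072175 on the plus strand, with 6007 bases of exon. The exons of Npas3 share 83 bases with an antisense gene that had 0 to 3 reads per library, and those of Arnt2 share 214 bases with an antisense gene that had 41 to 82 reads. The strand setting of the counting is not given in the sources used here, so reads in these shared bases cannot be told apart.

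The sequence before the start site is shown for Npas4 and for both partner genes, since Npas4 alone passed the hemisphere test within mice. The partners did not pass it, and none of the 5 passed the test that ignores the mouse. The cyclic AMP response element, TGACGTCA, and its shorter form TGACG, read as CGTCA on the other strand, are the letters bound by CREB, a calcium-regulated activator. RefSeq promoter windows (GRCm38.p6, 250 bases before to 50 after the start) were searched on both strands, and 5 of 5 genes had 1 window. Each line gives the 250 bases before the start, 5′ to 3′ on the gene's strand, with both readings of the short form in capitals. The stretches are chr19:4989972-4990221 (minus strand) for Npas4, chr3:95434140-95434389 (plus strand) for Arnt and chr7:84410039-84410288 (minus strand) for Arnt2.
Npas4: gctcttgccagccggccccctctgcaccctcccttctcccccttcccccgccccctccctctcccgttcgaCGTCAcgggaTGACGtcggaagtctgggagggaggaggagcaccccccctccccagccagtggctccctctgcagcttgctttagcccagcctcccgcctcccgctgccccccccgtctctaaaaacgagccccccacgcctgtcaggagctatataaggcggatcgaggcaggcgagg
Arnt: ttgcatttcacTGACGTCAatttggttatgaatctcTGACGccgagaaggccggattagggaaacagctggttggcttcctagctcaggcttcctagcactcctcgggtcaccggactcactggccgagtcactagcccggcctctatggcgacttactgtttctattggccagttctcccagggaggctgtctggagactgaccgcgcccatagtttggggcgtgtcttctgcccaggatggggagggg
Arnt2: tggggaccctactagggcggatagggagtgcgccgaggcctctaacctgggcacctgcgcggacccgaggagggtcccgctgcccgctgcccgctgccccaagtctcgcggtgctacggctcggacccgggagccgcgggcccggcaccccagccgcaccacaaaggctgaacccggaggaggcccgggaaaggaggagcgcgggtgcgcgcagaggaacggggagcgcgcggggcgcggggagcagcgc

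The Npas4 window held 2 copies of the short form, CGTCA beginning 179 bases and TGACG beginning 169 bases before the start. Arnt held 1 full element, 239 bases before the start, in which 2 copies of the short form overlap, and a further TGACG at 214 bases. Arnt2 held no match to either, nor did Npas1 or Npas3. Among 32851 RefSeq windows of mouse genes, 20.8% held the short form and 1.79% the full element. TCGTG, read as CACGA on the other strand, letters that NPAS4 paired with an ARNT protein can bind, stood in 16% of windows. Among the 5 genes it was found once, in Npas1, 183 bases before the start. A related core, GCGTG, read as CACGC on the other strand, which ARNT binds with the dioxin receptor, stood in 32.4% of windows and was found in Npas4 at 44 bases and in Arnt at 29 bases. The E-box CACGTG, in 7.15% of windows, was found in none of the 5. These matches describe letters, not binding.

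Libraries held 17849253 to 32213500 reads in genes. Levels are given as CPM, the counts scaled to a common library size (edgeR's TMM scaling). Summed markers of excitatory neurons stood at 1588 to 2195 CPM in contralateral and 1791 to 2325 CPM in ipsilateral libraries, with 0 of 8 markers at 0. The mitochondrial ribosomal transcript mt-Rnr1 separated the libraries: it stood at 14.5 to 35.9 CPM in contralateral 1, ipsilateral 1 and ipsilateral 3, and at 2243 to 5801 CPM in the other three. The sets cross the hemispheres and mouse 3, so the Npas4 result is also given within each set.

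Npas4, the activity-induced member, was lower in contralateral than in ipsilateral V1 in each of the 3 mice. Its level in contralateral V1 was 7.81 CPM in mouse 1, 6.86 CPM in mouse 2 and 17.3 CPM in mouse 3. In ipsilateral V1 it was 13.5 CPM in mouse 1, 22.5 CPM in mouse 2 and 40.4 CPM in mouse 3. Within each mouse the contralateral level was the lower of the pair, but the groups overlapped, since contralateral V1 of mouse 3 stood above ipsilateral V1 of mouse 1. These levels rest on 128 to 374 reads per contralateral and 270 to 986 reads per ipsilateral library. Contralateral Npas4 was 58% of the ipsilateral level in mouse 1, 30.4% in mouse 2 and 42.7% in mouse 3. Being lower in each of the 3 mice was shared by 3545 of 20473 genes (17.3%), and by none of the other 4. Contralateral libraries all below the ipsilateral ones were found in 1288 genes (6.29%) and in none of the 5. In bulk tissue, fewer cells that express a gene and less RNA per cell cannot be told apart.

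**Figure D1:**
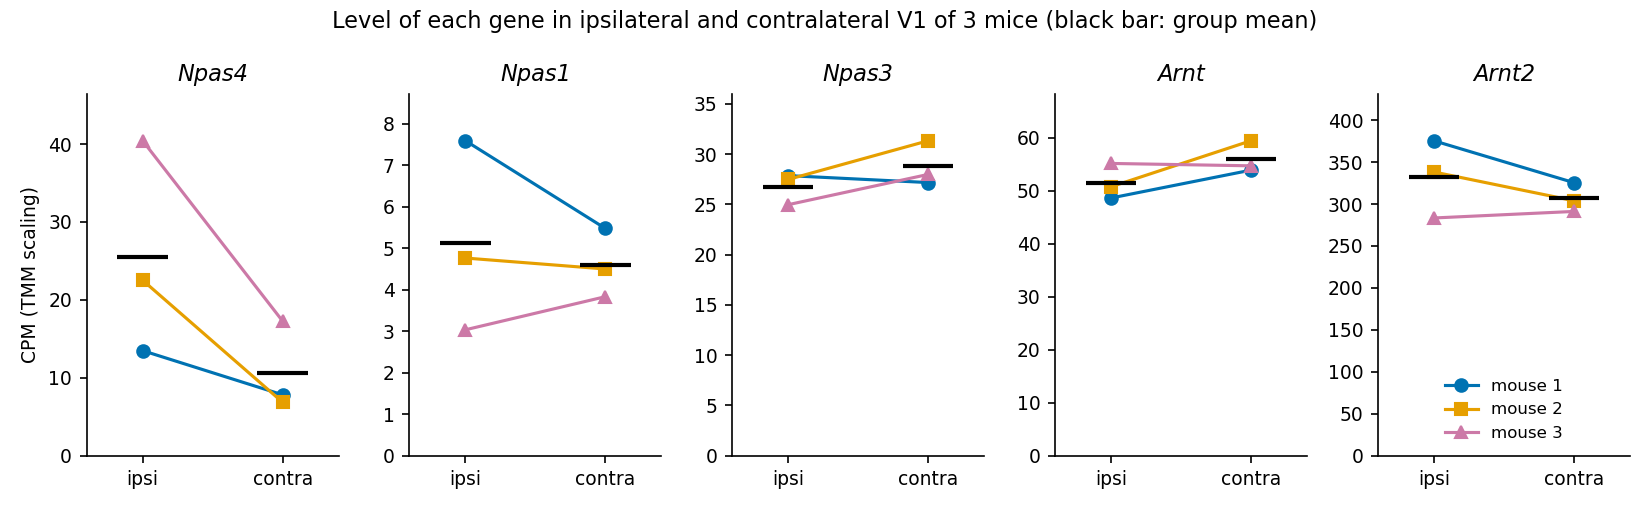
CPM of each gene (vertical axis, from 0, its own scale per panel) in ipsilateral and contralateral V1, with a line joining the 2 libraries of each mouse and black bars for the group means. All 3 lines fall from left to right for Npas4, whose highest contralateral point, 17.3 CPM, lies above its lowest ipsilateral point, 13.5 CPM, and none of the other 4 panels has 3 falling lines.

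Group means were 10.6 ± 5.75 CPM contralateral and 25.5 ± 13.7 CPM ipsilateral (SD, n = 3).
In the comparison of the groups that ignores which mouse a library came from, the log2 fold change was -1.26 (SE 0.38, 95% interval -2.09 to -0.42), 2.39-fold lower. This did not pass edgeR's quasi-likelihood test after adjustment over all genes (adjusted p = 0.587, unadjusted p = 0.00642), and Npas4 ranked 224th by p. In that comparison 26 genes passed as lower in contralateral V1 (0.127% of those tested) and 0 as higher (0%), with 1259 genes at an unadjusted p under 0.05. By DESeq2 74 genes passed as lower and 8 as higher. When contralateral 2 was left out, edgeR's test without the block called 0 genes.

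With the mouse as a block, which compares the hemispheres within each animal, the estimate was nearly the same and its error smaller. The log2 fold change of Npas4 was -1.25 (SE 0.15, 95% interval -1.56 to -0.93). This interval corresponds to a contralateral level of 33.8% to 52.4% of the ipsilateral level. Its variance draws on all genes tested, so it does not measure the spread of the Npas4 difference over mice. Mouse 1, at 58%, and mouse 2, at 30.4%, lie outside it. Npas4 passed the test (adjusted p = 0.000171) and ranked 21st by p. This fit called 143 genes lower (0.698%) and 40 genes higher (0.195%), and the 26 genes called without the block were among them. Across the 5 genes, 0 passed without the block and 1, Npas4, passed with it. DESeq2 also passed 0 without the block and Npas4 alone with it, where it gave no adjusted p for Npas1.

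**Figure D2:**
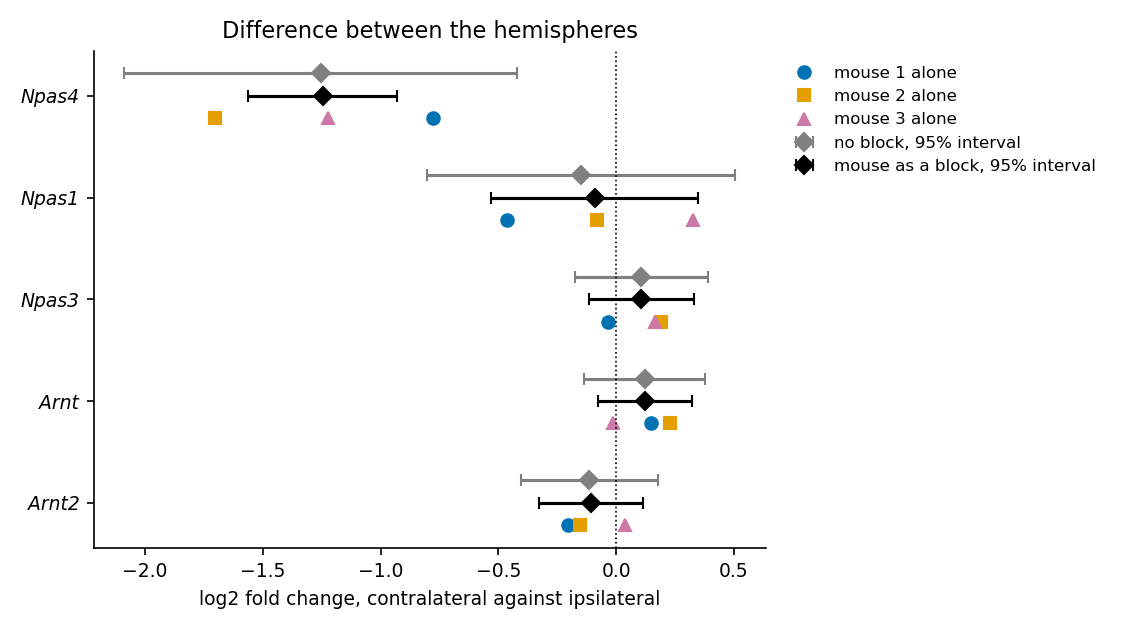
Log2 fold change of contralateral against ipsilateral V1 for each gene (horizontal axis), with diamonds and 95% intervals for the fits without and with the mouse as a block and coloured points for each mouse. The interval of Npas4 with the block, -1.56 to -0.93, and that without it, -2.09 to -0.42, both lie below 0, while both intervals of each of the other 4 genes cross 0.

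Within the 3 libraries of low mt-Rnr1, the log2 fold change of Npas4 was -1.80, and within the 3 of high mt-Rnr1 it was -0.89. The low set holds contralateral 1 against ipsilateral 1 and 3, and the high set contralateral 2 and 3 against ipsilateral 2. Each set has a single library on a side and a mouse present on one side alone, so these values include the difference between mice. The summed level of 13 markers of GABAergic interneurons did not overlap between the hemispheres. It was 642 to 687.9 CPM contralateral and 757.9 to 965.6 CPM ipsilateral, with 0 of 13 at 0. Of the 13, 11 had a log2 fold change below 0 and 2 above, Dlx5 at 0.26 and Adarb2 at 0.09, and those of Npy and Calb2 were -0.03 and -0.01. None of the 13 passed without the block (4 at an unadjusted p under 0.05, 2 by DESeq2). Over all genes tested, 0.127% passed as lower without the block and 0.698% with it. With the block Gad1 and Gad2, the enzymes of GABA synthesis, and the peptide Vip fell, with adjusted p of 0.00558, 0.0301 and 0.00754 and, without the block, log2 fold changes of -0.56, -0.48 and -0.62. Their part in the Npas4 result was not tested.

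**Figure D3:**
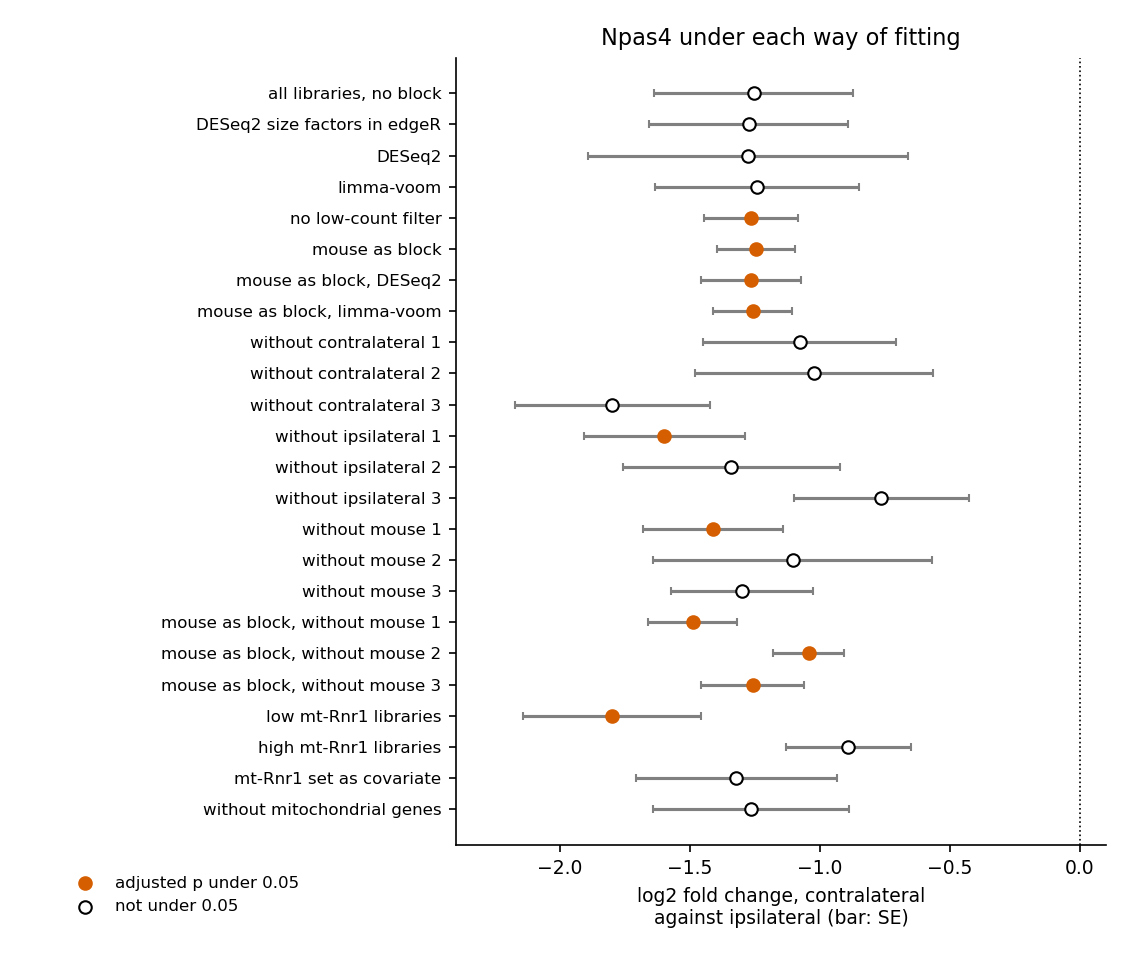
Log2 fold change of Npas4 (horizontal axis, bar for SE) in the fit without the block at the top and in each of 23 alternatives, filled where the adjusted p was under 0.05. All 23 alternatives lie below 0, between -1.80 and -0.76, and 10 of them passed.

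Npas4 also differed among the animals, by an amount similar to that between hemispheres. Averaged over both hemispheres it stood at 10.7 CPM in mouse 1, 14.7 CPM in mouse 2 and 28.9 CPM in mouse 3. In the model with hemisphere and mouse, mouse 3 exceeded mouse 1 by 1.38 on the log2 scale, a 2.59-fold difference. This passed edgeR's quasi-likelihood test of the 3 mice (adjusted p = 0.000469), at rank 44 of all genes. Differences among mice passed for 1313 genes (6.41%), and for 1 of the 5, Npas4. Cell type and region markers differed among the same mice too: 16 of 64 passed, 14 of them lowest in mouse 3, where Npas4 was highest. How many of the 1313 genes were lowest in mouse 3 was not counted. No contrast particular to the markers can therefore be read from this. By type, 4 of 9 oligodendrocyte, 3 of 7 vascular, 2 of 6 microglial, 2 of 8 excitatory, 2 of 8 astrocyte and 1 of 13 GABAergic markers passed. Their part in the Npas4 difference was not tested. Both libraries of mouse 1 were in the low mt-Rnr1 set and both of mouse 2 in the high set, while mouse 3 was split. Mouse and mt-Rnr1 set can therefore not be fully told apart. The labels do not give the time of day, litter or light exposure of single mice.

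Arnt and Arnt2, which encode the partner subunits, had steadier RNA levels. Arnt measured 53.9, 59.4 and 54.7 CPM in contralateral V1 of mice 1 to 3 and 48.6, 50.7 and 55.1 CPM in ipsilateral V1. The groups overlapped, and mouse 3 had nearly equal levels on both sides. Means were 56 ± 2.99 CPM and 51.5 ± 3.33 CPM (SD, n = 3), with a log2 fold change of 0.12 (SE 0.12, adjusted p = 0.882).

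Arnt2, the partner that predominates in neurons, measured 325.6, 304 and 291.2 CPM in contralateral V1 of mice 1 to 3. In ipsilateral V1 it measured 375.5, 338.3 and 283.4 CPM. Ipsilateral levels were the higher in mice 1 and 2 and the lower in mouse 3, and the groups overlapped. Means were 306.9 ± 17.4 CPM and 332.4 ± 46.3 CPM (SD, n = 3), with a log2 fold change of -0.12 (SE 0.13, adjusted p = 0.903).

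Neither partner passed with the block. The within-mouse 95% intervals place the contralateral level at 94.7% to 125% of the ipsilateral one for Arnt and at 79.6% to 108% for Arnt2. A fall of the size seen for Npas4 lies outside both intervals. The largest differences between 2 mice were 1.07-fold for Arnt (adjusted p = 0.793) and 1.22-fold for Arnt2 (adjusted p = 0.372).

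The paralogs NPAS1 and NPAS3 act in the development of cortical interneurons, and neither is known as an activity-induced gene. Npas1 was the scarcest of the 5, with 74 to 152 reads per library. It measured 5.48, 4.5 and 3.83 CPM in contralateral V1 of mice 1 to 3 and 7.59, 4.76 and 3.03 CPM in ipsilateral V1. Mouse 1 was highest and mouse 3 lowest on both sides, whereas mouse 3 was highest for Npas4 on both sides. The ipsilateral side was the higher in mice 1 and 2 and the lower in mouse 3.

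Group means of Npas1 were 4.6 ± 0.826 CPM contralateral and 5.13 ± 2.3 CPM ipsilateral (SD, n = 3), with a log2 fold change of -0.15 (SE 0.30, adjusted p = 0.949). The sign turned to 0.19 when ipsilateral 1 was left out. With the block, the 95% interval ran from 69.2% to 127% of the ipsilateral level, so a change within that range, in either direction, is compatible with these values. Mouse 1 exceeded mouse 3 by 1.9-fold, which did not pass after adjustment (adjusted p = 0.0853, unadjusted p = 0.00765).

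Npas3 measured 27.2, 31.3 and 28 CPM in contralateral V1 of mice 1 to 3 and 27.9, 27.5 and 25 CPM in ipsilateral V1. The 6 values lay close together and the groups overlapped. Means were 28.8 ± 2.2 CPM and 26.8 ± 1.57 CPM (SD, n = 3), with a log2 fold change of 0.11 (SE 0.13, adjusted p = 0.909). The within-mouse 95% interval ran from 92.3% to 126% of the ipsilateral level, and the largest difference between 2 mice was 1.11-fold (adjusted p = 0.728).

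To compare levels between genes, CPM was divided by the exon length in kilobases (RPKM). On this scale Arnt2 led in every library, at 39.9 ± 2.27 contralateral and 43.2 ± 6.02 ipsilateral (SD, n = 3). Arnt followed at 6.99 ± 0.374 and 6.43 ± 0.415, and Npas3 stood at 4.8 ± 0.367 and 4.46 ± 0.262. Npas1 was lowest, at 1.53 ± 0.275 and 1.71 ± 0.764.

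Npas4 was the gene that changed place in this order. It stood at 2.38, 2.09 and 5.27 per kilobase in contralateral V1 of mice 1 to 3, at rank 4, 4 and 3 of the 5. In ipsilateral V1 it stood at 4.11, 6.87 and 12.3, at rank 4 in mouse 1 and rank 2, above Arnt, in mice 2 and 3. Npas4, Arnt and Npas3 are neighbours whose order is not fixed beyond the spread of Npas4 over libraries, while Arnt2 lay above and Npas1 below the other members in each library.

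**Figure D4:**
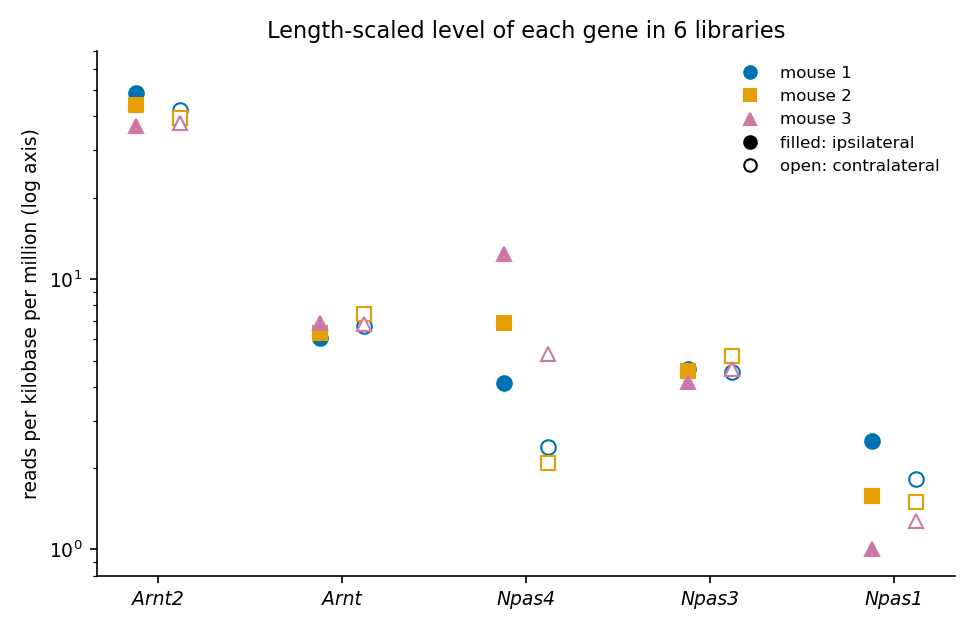
RPKM, reads per kilobase at a common library size (vertical log axis), of the 5 genes in 6 libraries, filled for ipsilateral and open for contralateral V1, with a colour and symbol per mouse. Npas4 spreads from 2.09 to 12.3, across the levels of Arnt and Npas3, while the 6 points of Arnt2 stay above all other points.

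Per kilobase, Arnt2 exceeded Npas4 in contralateral V1 by 17.8, 18.9 and 7.19 times in mice 1 to 3, and in ipsilateral V1 by 11.9, 6.4 and 2.99 times. In each mouse the excess of Arnt2 was the smaller on the ipsilateral side. Npas4 made up 3.75% to 9.43% of the length-scaled level of the 5 genes in contralateral and 6.22% to 20.1% in ipsilateral libraries, and Arnt2 made up 60.2% to 73.8% over all 6. Arnt2 exceeded Arnt by 5.33 to 6.3 times in contralateral and 5.36 to 8.05 times in ipsilateral V1. RNA levels do not give the amounts of the proteins that pair.

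Ratios of Npas4 to each relative within a library ask whether its fall differs from what the relative did. The log2 ratio of Npas4 counts to Arnt2 counts was lower in contralateral V1 by a mean of -1.13 (SD 0.50 over 3 mice), and that to Arnt by -1.36 (SD 0.52). The ratio to Npas3 differed by -1.35 (SD 0.58) and that to Npas1 by -1.17 (SD 0.74). Each ratio was lower in 3 of 3 mice. Each gave p = 0.2 in the exact two-sided permutation test of 3 against 3 libraries, adjusted p = 0.2 over 4 comparisons. The smallest p this test allows is 0.1, and the exact sign-flip test over 3 mice gave 0.25, the smallest it allows.

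Of 14 other bHLH-PAS factors and p160 coactivators in the table, 12 had enough reads to be tested, and their median log2 fold change was 0.00, against 0.03 over all genes tested. The list holds the hypoxia factors, the dioxin receptor and the clock factors, and Sim1 and Sim2 were the untested pair. None passed in either fit or by DESeq2 (1 at an unadjusted p under 0.05, 2 with the block). This is near the share over all genes, of which 0.127% passed as lower and 0% as higher without the block. With the block 0.698% and 0.195% did. Arntl2, a clock factor and relative of Arnt, measured 16.6 ± 3.14 CPM contralateral and 11.2 ± 1.07 CPM ipsilateral (SD, n = 3). Its log2 fold change of 0.57 gave an adjusted p of 0.608, and 0.0698 with the block. Hif1a, the oxygen-regulated factor, had -0.22, and Clock had -0.12. Differences among mice passed for 0 of the 12 (2 at an unadjusted p under 0.05), near the share of 6.41% over all genes tested.

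Genes reported downstream of Npas4 in neurons were in part lower in contralateral V1. Of 11 tested, 3 fell without the block and 4 with it, and 0 rose, with a median log2 fold change of -0.30. Over all genes tested, 0.127% fell without the block and 0.698% with it. The list was chosen with earlier results of these data known, so its counts are no independent result. The neurotrophin Bdnf measured 19.8 ± 1.82 CPM contralateral and 57 ± 13.5 CPM ipsilateral (SD, n = 3), a log2 fold change of -1.52 (adjusted p = 0.00373). Nptx2, which gathers AMPA receptors at synapses onto interneurons, measured 17.1 ± 1.37 and 54.7 ± 24 CPM (log2 fold change -1.67, adjusted p = 0.018). Nr4a1, a nuclear receptor that is itself an immediate early gene, measured 38.5 ± 6.63 and 126.2 ± 14.7 CPM (log2 fold change -1.71, adjusted p = 0.00125). Rgs2, a regulator of G-protein signalling, fell with the block alone (log2 fold change -0.54, adjusted p = 0.66, and 0.0173 with the block).

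The other 7 downstream genes did not pass in either fit. The potassium channel gene Kcna1 had a log2 fold change of -0.30, Csrnp1 -0.40, Plk2 -0.20, Syt10 -0.12 and Mdm2 -0.01, while Frmpd3 had 0.21 and Iqsec3 0.07. The genes above were gathered from work in other neurons, and their dependence on Npas4 was not measured here.

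Genes upstream of Npas4 and of its partners were also compared between hemispheres. Of 17 calcium-responsive regulators and cofactors, 0 passed in either fit or by DESeq2 (0 at an unadjusted p under 0.05, 2 with the block), with a median of 0.02. The serum response factor Srf had a log2 fold change of -0.24, the calcium-dependent kinase Camk4 -0.23, the CREB coactivator Crtc1 0.29 and the L-type calcium channel Cacna1c 0.15. Among mice 3 of the 17 differed, Srf, Crtc1 and the deacetylase Hdac5, each highest in mouse 1 and lowest in mouse 3. The share over all genes tested was 6.41%. Of 20 subunits of NuA4, the acetyltransferase complex that NPAS4 joins, 0 passed (0 at an unadjusted p under 0.05, 1 with the block), with a median of -0.05 and values from -0.23 to 0.18. Over all genes tested, 0.127% were called lower and 0% higher without the block, and 0.698% and 0.195% with it. Counts of 0 between hemispheres in lists of 17 and 20 are near those shares.

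Immediate early genes, the class Npas4 belongs to, gave the reference for its size of change. Of 25 other members tested, 13 fell without the block and 19 with it, 0 rose, and the median log2 fold change was -1.12. The shares of all genes tested that fell were 0.127% and 0.698%. This list, too, was chosen with earlier results of these data known. Leaving out contralateral 2, or both libraries of mouse 2, left 0 of the 83 listed pathway genes called without the block, against 15 with all libraries. Among the 13 genes, 10 had a larger estimated fall than Npas4, from which no difference was tested. These 13 were picked by passing, which favours large falls and small SEs. The median of all 25, -1.12, was a smaller fall than the -1.26 of Npas4. SEs of the 13 genes were 0.13 to 0.29, against 0.38 for Npas4. Fos, whose protein is a subunit of AP-1, had a log2 fold change of -2.02 (adjusted p = 0.00263), and Egr2, a zinc finger factor, had -2.95 (adjusted p = 0.00165).

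Several of these genes also differed among the mice. Their largest differences between 2 mice ran from 0.12 to 1.23 on the log2 scale, and 25 of 25 estimates were below the 1.38 of Npas4, a difference that was not tested. The difference among mice passed for 5 of 25, Egr4, Jund, Ier5, Nr4a2 and Fos, against 6.41% of all genes tested. Egr4, a zinc finger factor, came nearest to Npas4 with a 2.34-fold difference (adjusted p = 0.00043), but with mouse 1 highest and mouse 3 lowest, the reverse of Npas4. Like Npas4 it passed between hemispheres with the block alone (adjusted p = 0.282, and 8.55e-06 with the block). So did Btg2, Ier2, Klf10, Nr4a2 and Ier5 of the same list.

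The mouse with the largest fall also differed. Npas4 fell least in mouse 1 and most in mouse 2. Of the 19 immediate early genes called with the block, 13 had their largest fall in mouse 1 and 6 in mouse 2, and 4 had their smallest fall in mouse 1. For Fos the log2 differences in mice 1 to 3 were -2.29, -2.17 and -1.72, and for Nr4a1 they were -2.16, -1.53 and -1.47. With 1 library per hemisphere in each mouse, these differences between mice have no replicate check.

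**Figure D5:**
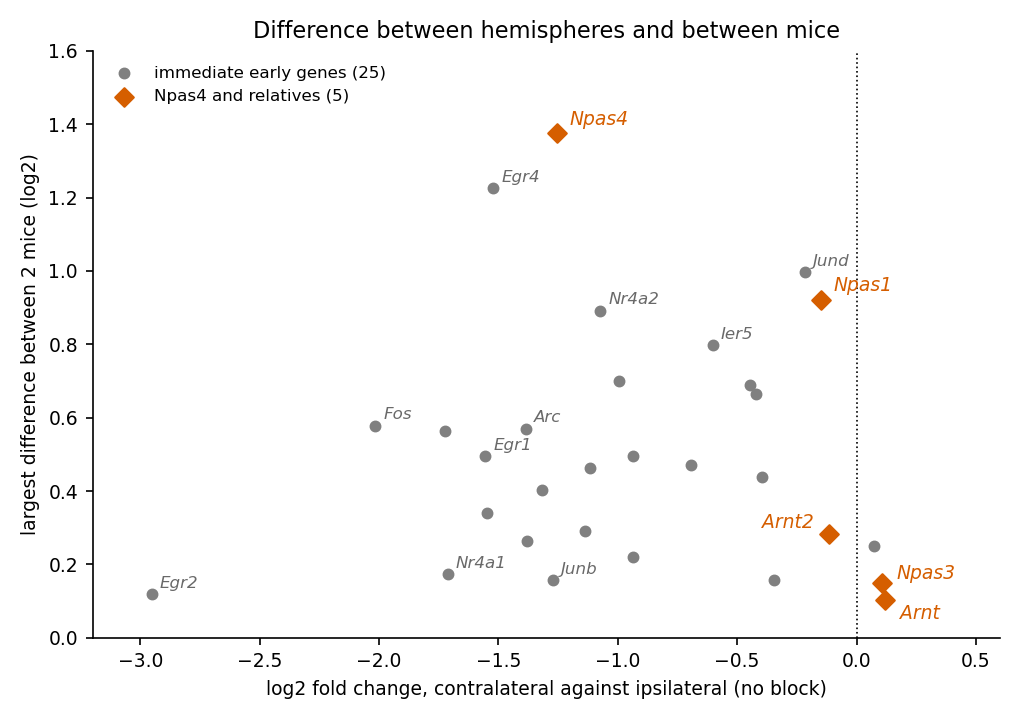
Log2 fold change between hemispheres without the block (horizontal axis) against the largest log2 difference between 2 mice (vertical axis) for 25 immediate early genes (grey) and the 5 genes described (orange). Npas4, at -1.26 and 1.38, lies above all 25 grey points, of which Egr4 at 1.23 is the nearest in height.

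The genes whose log2 CPM followed Npas4 most closely over the 6 libraries were not immediate early genes. Among 13438 genes compared, the 8 with the highest Pearson correlation were Vldlr, Med14, Scai, Zfp874a, Ube2d3, Gria2, Mbnl1 and Dcbld1, with r from 0.998 to 0.991. Vldlr encodes a reelin receptor and Gria2 an AMPA receptor subunit. Their differences between hemispheres were far smaller than that of Npas4: the log2 fold change was -0.23 for Vldlr and -0.17 for Gria2. Fos, with r = 0.842, ranked 891st, Arc had r = 0.755, Nr4a1 0.72, Bdnf 0.642 and Nptx2 0.465. With so many genes and 6 libraries that share mice and hemispheres, 440 genes had r over 0.9, so these values describe the libraries only.

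The relatives did not follow Npas4. Its correlation over the 6 libraries was -0.279 with Arnt, -0.285 with Arnt2, -0.551 with Npas1 and -0.781 with Npas3. The genes most like each were Tia1, Sntg2 and Ppib for Arnt (r 0.998 to 0.992) and Rbm15b, Psmb10 and Ctnnbip1 for Arnt2 (r 0.994 to 0.99). For Npas1 they were Dlg4, Cbfa2t3 and Ctnnd2 (r 0.993), and for Npas3 Catspere2, Rubcnl and Ddx27 (r 0.998 to 0.984).

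Circular RNAs, formed when a downstream splice site joins an upstream one, were counted in the same libraries. Of 1488 in the deposited table, 0 lay in any of the 5 genes. The wider family had 5, of which 3 came from Npas2, 1 from Clock and 1 from Ncoa2. That of Ncoa2 (chr1:13221307-13286025, minus strand) had 28 to 49 reads per library and a log2 fold change of 0.10 (SE 0.31, adjusted p = 0.999). The other 4 had negative estimates and did not pass either: -0.87 for Clock (2 to 17 reads) and -0.52, -0.39 and -0.21 for Npas2 (1 to 26 reads).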

How the data were processed

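The authors deposited a matrix of raw counts of reads for Ensembl genes in the format that featureCounts writes, per the file headers. A second deposited matrix holds back-splice counts with coordinates. HISAT2, DESeq2, limma, featureCounts and the build GRCm38 are named in the submitters' processing notes. Which versions, strand setting and circRNA caller were used is not given in the sources used here. The normalized circRNA files were not used here.

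Symbols came from GENCODE M21, in which 52489 of 52636 IDs were found. Genes were compared with edgeR 4.0.16 in R 4.3.3 (quasi-likelihood F test after TMM scaling; filterByExpr kept genes by a count of 10 and a total of 15). P-values were adjusted by Benjamini-Hochberg over 20473 genes, with a threshold of 0.05. Alternatives used DESeq2 1.42.0, limma 3.58.1 (voom), other filters and libraries left out. The SE of a log2 fold change is its size over the square root of F. Ratios added 0.5 to each count, and correlations used log2 CPM with a prior count of 2 in genes of mean CPM of at least 1. Code was tested on simulated data, and figures were drawn with matplotlib 3.10.9. Read counts carry no molecular identifiers, so intervals cover sampling of reads and libraries only.

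Libraries of a number come from the same mouse, per the labels, so they are paired. After group means were removed, the libraries of mice 1, 2 and 3 correlated at 0.431, 0.078 and 0.172, and the highest correlations with a library of another mouse were -0.188, 0.177 and 0.177. For mice 2 and 3 these exceed the same-mouse values, so the pairing rests on the labels. Across 15 pairs of libraries r ran from 0.976 to 0.989, and identical counts were found in 2.03% of genes or fewer. The 5 genes and the lists were chosen with earlier results of these data known. Named were the 5 genes, up to 6 genes of smallest p and every called gene per pathway list, and the genes most like each of the 5, predicted genes left out. The single value of a gene that the rule selects is not reported here. Of cell markers, up to 2 per list and those called are named. Markers of excitatory neurons, astrocytes, oligodendrocytes, microglia, vessels, meninges and neighbouring regions had 0 calls between hemispheres in either fit and by DESeq2. Without the block 1, an excitatory marker, had an unadjusted p under 0.05 in edgeR's test. With the block 2 excitatory, 2 oligodendrocyte and 1 neighbouring-region markers did.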

Additional observations from a re-analysis of the deposited data

How the results depend on the processing

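Without the block, leaving out libraries moved the number of genes called between 0 and 39, with 0 without contralateral 2 and 0 without mouse 2. With the block, leaving out a mouse gave 174 to 269. With all libraries, 26 genes passed without the block, 82 by DESeq2 and 109 with no low-count filter. With the mouse as a block 183 passed, 214 by DESeq2 and 157 by limma-voom. Over 23 alternatives the adjusted p of Npas4 ran from 1.19e-14 to 1. The smallest came from edgeR's fit with the block without mouse 1, a single pair of mice, where the variance draws mostly on other genes. In edgeR's test without the block, leaving out the low-count filter gave 5.41e-09 (SE 0.18), against 0.587 (SE 0.38) with it. The log2 fold change of Npas4 was negative in 23 of 23 alternatives, and passed in 10, which include those with the block. It passed with the mouse as a block (-1.25, -1.27 by DESeq2 and -1.26 by limma-voom), with no low-count filter (-1.27) and in the libraries of low mt-Rnr1 (-1.80, where the sides are not from the same mice). With libraries left out it ran from -1.80 to -0.76, and passed without ipsilateral 1 (-1.60), without mouse 1 (-1.41) and in each pair of mice with the block. The sign of Npas1 turned in the libraries of low mt-Rnr1 (0.042) and when ipsilateral 1 (0.19) or both libraries of mouse 1 (0.05, and 0.08 with the block) were left out, and with libraries left out it ran from -0.42 to 0.19. Its difference among mice passed with no low-count filter (0.93 on the log2 scale, adjusted p = 0.0216). Npas3 and Arnt stayed above 0 and Arnt2 below 0 in 23 of 23 alternatives each, and none passed. The number of listed pathway genes called without the block, 15, ran from 0 (without contralateral 2 or mouse 2) to 19 with libraries left out. With the block it was 22, and 19 to 22 with a mouse left out. The cause of these changes was not tested. No circular RNA lay in the 5 genes, so libraries were not left out there. The low counts of Npas1 and the 3 mice limit what could be detected.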
